A study of Drosophila melanogaster with 3 samples.

Results

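Among the 7248 reproducible binding sites of the transcription factor CG10669 in whole Drosophila melanogaster prepupae, 1919 (26.5%) lay in introns of protein-coding genes close to, but not at, a gene start. A site belonged here if its summit, the position of highest signal, was inside a protein-coding gene and in no exon, over 500 bp from every annotated transcription start site (TSS) and at most 5 kb from the nearest protein-coding TSS (Ensembl release 115, dm6 coordinates). These sites are called near-start intronic peaks below. The rule used positions only and no signal. The sequence that meets the rule covered 21.8 Mb, or 16.3% of the chromosomes analysed, so it held 88.0 reproducible peaks per Mb.

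The data were chromatin immunoprecipitation with sequencing (ChIP-seq), which recovers DNA bound by a chosen protein, from 3 biological replicates in 1 group. All animals were mixed-sex prepupae of a transgenic line that stably carries CG10669 fused to GFP at its C-terminus, and there was no other genotype, stage or treatment to compare with. The antibody label names CG10669 itself, so whether only the fusion or also the untagged protein was recovered is not given in the sources used here. Sample descriptions are worded as an input control and the age label is 24 days, which is not a prepupal age, while the deposited files are peak lists of the immunoprecipitation. Whole organisms were used, so no signal can be assigned to a cell type.

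Introns of fly genes often hold enhancers, short stretches of DNA to which transcription factors bind to raise or lower the output of a promoter. The intron next to a start site is a common place for such elements, and long genes with several alternative start sites can have them between their promoters. A ChIP peak in an intron reports that the protein, or a complex holding it, was near that DNA, not which promoter it acts on.

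The DNA under 10 of the strongest near-start intronic peaks found in all 3 replicates follows, as the summit base with 50 bases on either side, read 5′ to 3′ on the plus strand of dm6 from the RefSeq genome. They are the top 10 on the chromosome arms whose sequence is printed, and are given because low GC content at the summit was the clearest sequence feature of these peaks. Capitals mark TATAAA on either strand (TTTATA on the strand shown), the consensus motif of the 32 searched whose share differed most between summits and flanks.

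CG11050 (chr2L:6612659-6612759, plus strand): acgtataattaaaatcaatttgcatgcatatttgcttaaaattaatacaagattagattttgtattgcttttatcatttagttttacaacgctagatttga
ush (chr2L:481007-481107, plus strand): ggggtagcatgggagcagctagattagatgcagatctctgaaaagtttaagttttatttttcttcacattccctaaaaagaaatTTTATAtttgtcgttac
CG32772 (chrX:4910338-4910438, plus strand): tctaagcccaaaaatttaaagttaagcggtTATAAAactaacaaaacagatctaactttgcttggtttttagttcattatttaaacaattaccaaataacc
Lk6 (chr3R:11761008-11761108, plus strand): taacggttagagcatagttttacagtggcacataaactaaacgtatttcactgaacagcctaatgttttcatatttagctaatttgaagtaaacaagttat
pum (chr3R:9229220-9229320, plus strand): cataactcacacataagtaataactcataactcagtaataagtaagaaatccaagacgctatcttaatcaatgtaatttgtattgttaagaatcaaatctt
CG4496 (chr2L:7188583-7188683, plus strand): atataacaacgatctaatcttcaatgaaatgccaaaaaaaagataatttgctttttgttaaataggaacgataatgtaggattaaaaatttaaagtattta
Reph (chr2L:3804716-3804816, plus strand): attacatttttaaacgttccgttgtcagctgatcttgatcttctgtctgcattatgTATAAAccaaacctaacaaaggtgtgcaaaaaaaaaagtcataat
Trl (chr3L:14759454-14759554, plus strand): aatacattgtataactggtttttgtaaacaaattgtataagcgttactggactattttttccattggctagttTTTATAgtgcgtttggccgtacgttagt
CG3726 (chrX:5918842-5918942, plus strand): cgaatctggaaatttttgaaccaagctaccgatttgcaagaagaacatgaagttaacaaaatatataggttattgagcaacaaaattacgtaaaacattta
Eip78C (chr3L:21253846-21253946, plus strand): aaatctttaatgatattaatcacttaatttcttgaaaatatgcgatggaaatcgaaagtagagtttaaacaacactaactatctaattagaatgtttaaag

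All 10 stretches were rich in A and T, with GC contents from 21.8% to 33.7%. In 200 bp windows, however, Reph and CG3726 had more GC at the summit (34% and 40.5%) than 500 bp to either side (29.25% and 28.75%). The others had less at the summit. Of the 10, 4 held TATAAA, at ush, CG32772, Reph and Trl. The other 6 held none, so these letters alone do not mark the strongest summits.

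Peak signal in the deposited lists is the peak caller's own value and has a different scale in each replicate. It was therefore divided by the median signal of the 30000 candidate peaks of the same replicate, and the result is called relative signal. The strongest near-start intronic peak lay in intron 2 of CG11050, a gene known by its model number, at chr2L:6612441-6612940, with its summit 1022 bp downstream of the TSS in an intron of 140 bp. Its relative signal was 66.3, 53.9 and 61.3 in replicates 1, 2 and 3 (60.5 ± 6.24, SD, n = 3). All 3 replicates put it among their 9 highest candidates.

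The next peak by pooled signal was inside ush, the cofactor of GATA factors known as U-shaped, with relative signals of 57.2, 51.4 and 64.1. It sat in intron 1 of ush, but the nearest start, 1369 bp away, was that of another gene, cbt, a zinc-finger transcription factor. That start lies within the annotated span of ush. Which of the pair it acts on cannot be read from its position. The peak in Lk6, a kinase that phosphorylates the translation initiation factor eIF4E, had relative signals of 48.0, 44.9 and 52.02. These values varied little between replicates (48.3 ± 3.55).

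Other strong peaks were less even. The peak in CG32772 reached 67.3 in replicate 1 against 45.7 and 47.2 in the others. The peak shared by the overlapping genes HmgZ and HmgD, which encode HMG-box chromatin proteins, reached 60.5 in replicate 1 against 38.0 and 38.2. The peak in CG4496 reached 49.1 in replicate 1 against 27.8 and 27.5. In these 3 peaks replicate 1 stood above the other 2, and their order relative to Lk6 differed between replicates.

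Several strong peaks lay in genes of regulatory proteins. In pum, which encodes a translational repressor that binds RNA, the peak in intron 3 had relative signals of 41.1, 32.7 and 36.2. In Trl, which encodes GAGA factor, the peak in intron 2 had 41.3, 24.5 and 29.7. In Eip78C, an ecdysone-induced nuclear receptor, the peak in intron 1 had 36.2, 24.7 and 25.99, at a summit 4124 bp from the start of another gene, CG43218. Replicate 2 was the lowest and replicate 1 the highest of the 3 in each of these genes.

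Among the 25 strongest peaks recovered in all 3 replicates, ranked 4 to 107 of the whole list, 21 were in intron 1 and 23 were nearest to a start of their own host gene. Summits were 565 to 4427 bp from the nearest start (median 1127 bp), 12 of them downstream of it and the rest upstream of an internal start or a start of another gene. Further hosts in this group were ImpL2, a secreted antagonist of insulin-like peptides (27.0 ± 4.21, n = 3), neur, a ubiquitin ligase of the Notch pathway (26.1 ± 3.76), and for, a cGMP-dependent protein kinase (23.7 ± 3.04). They also included Adf1, a transcription factor (26.4 ± 2.71), edl, a regulator of Ets-domain factors (23.8 ± 3.52), and chif, an activator of the replication kinase Cdc7 (24.1 ± 1.47). Replicate 2 had the lowest relative signal in 20 of the 25 and the highest in 0. Neighbours in this order, such as neur, Adf1 and Mhcl, differed by less than their SDs.

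**Figure D1:**
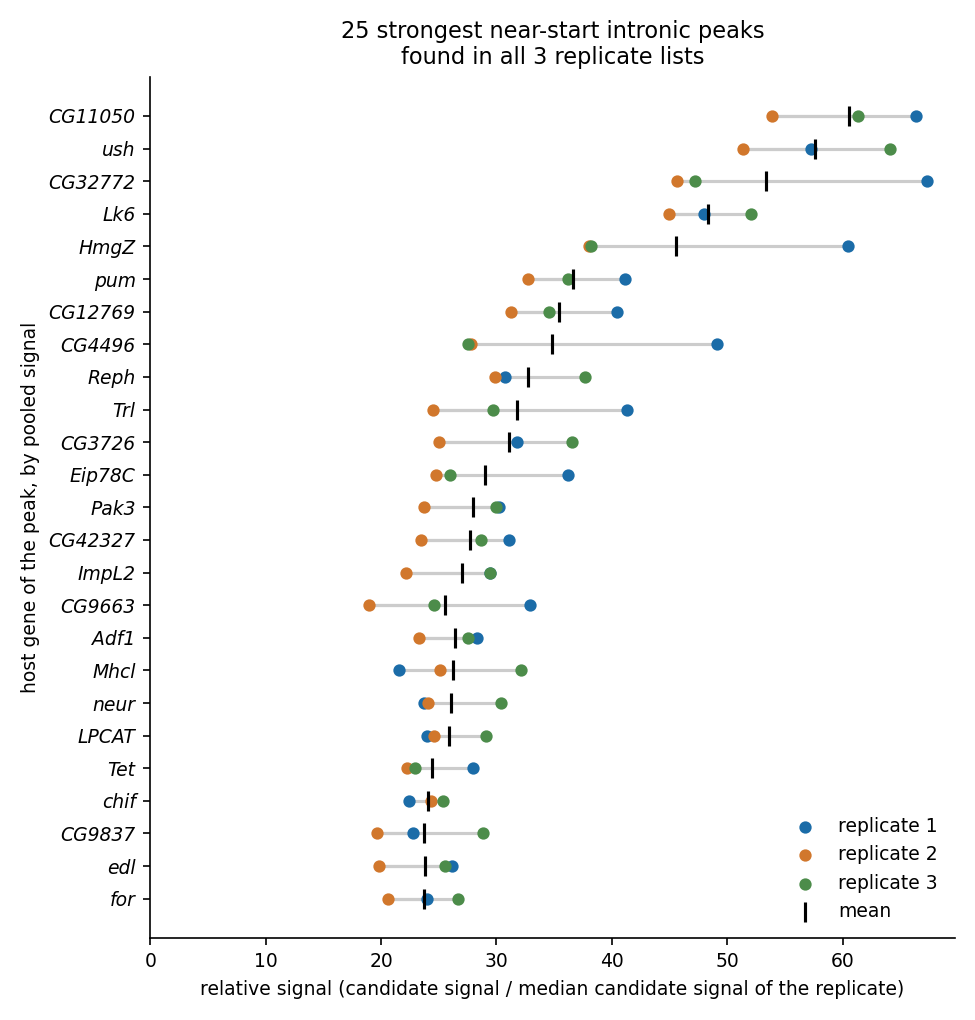
Relative signal (candidate signal divided by the median candidate signal of the replicate, horizontal axis) of the 25 strongest near-start intronic peaks recovered in all 3 replicate lists, 1 row for each peak named by its host gene and ordered by pooled signal. Coloured points are replicates and the black tick is their mean. Means run from 60.5 at CG11050 to 23.7 at for, and CG32772, HmgZ and CG4496 show replicate 1 far to the right of the other replicates.

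The 7248 candidates of highest signal in each replicate, as many as the reproducible list holds, were used as that replicate's own list, and its 7248 lowest-signal candidates as a comparison. Of the 1919 near-start intronic peaks, 1645 (85.7%), 1620 (84.4%) and 1668 (86.9%) had a summit of the list of replicates 1, 2 and 3 within 200 bp. Over all reproducible peaks these shares were 85.9%, 82.8% and 85.4%. All 3 lists held 1309 of the near-start intronic peaks (68.2%), against 66.7% of all reproducible peaks, so their recovery was near that of the whole list. A further 406 were in exactly 2 lists, 194 in 1 and 10 in none.

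Recovery in the lists is tied to signal by construction, since the lists and the groups below were both taken by signal. When the 1919 peaks were split by pooled signal into 5 groups of equal size, 97.7%, 96.1%, 84.9%, 56.3% and 6.25% were in all 3 lists, from the strongest group to the weakest. In the weakest group, next to the signal at which the lists end, 24 of 384 peaks were in all 3.

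Among all candidates rather than the lists, 1823 (95.0%) had a summit within 200 bp in each replicate. Replicate 1 alone lacked a candidate for 72 of the 1919, replicate 2 alone for 11 and replicate 3 alone for 12. These counts were not made over all reproducible peaks, so the gap in replicate 1 is not shown to be particular to near-start intronic peaks. The strongest lacking in replicate 1 was in CG9663 (rank 24), where the nearest replicate 1 summit was 206 bp away, just past the matching distance, and had a relative signal of 32.9. For tsl (rank 425), CG5854 (rank 479) and Dhc64C (rank 549), the nearest replicate 1 candidate was 17418, 6213 and 10230 bp away. At the peak in tsl, a gene of the terminal patterning system, relative signals in replicates 2 and 3 were 13.7 and 14.4. At CG5854 they were 13.2 and 19.0. These are clear peaks in replicates 2 and 3 with no listed counterpart in replicate 1.

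How near-start intronic peaks compare with other binding sites was asked against deep intronic peaks (1433, in introns over 5 kb from a protein-coding TSS), promoter peaks (1963, within 500 bp of such a TSS) and near intergenic peaks (663, outside genes but within 5 kb of a start). Median log2 relative signal of the near-start intronic peaks was 2.03, 1.69 and 1.91 in the 3 replicates. It was above that of deep intronic peaks by 0.16, 0.13 and 0.09 (mean 0.12 ± 0.03, n = 3). It was above that of near intergenic peaks by 0.07 in each of the 3 replicates, and below that of promoter peaks by 0.35, 0.13 and 0.11 (mean difference -0.20 ± 0.13). All 3 differences had 1 sign in every replicate. The difference from promoter peaks was -0.12 without replicate 1 and also -0.12 among the 3624 strongest peaks of the reproducible list. With an outer limit of 2 kb the difference from near intergenic peaks was 0.02 ± 0.07 and no longer had 1 sign.

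Recovery differed less clearly. It was 1.43 ± 0.75 percentage points above that of promoter peaks, higher in 3 of 3 replicates, and 0.737 ± 2.55 points above that of deep intronic peaks, with replicate 1 going the other way. Against near intergenic peaks the difference was 1.88 ± 2.25 points. The sizes depended on the setting. The difference from deep intronic peaks was -0.42 without replicate 2 and 2.10 without replicate 1. It was -0.304 with an outer limit of 2 kb and 2.37 with one of 10 kb. With the reproducible list and each replicate list cut to their 3624 strongest peaks, it was 3.77 ± 0.233. That from promoter peaks was 3.83 ± 3.08 among the strongest and 0.959 ± 0.912, without 1 sign in all replicates, when summits were matched within 500 bp. That from near intergenic peaks ranged from 0.876 without replicate 2 to 3.09 without replicate 1. Exact two-sided sign-flip permutation tests over the 3 replicate differences gave p = 0.25 for the 3 signal comparisons and for recovery against promoter peaks, 0.75 against deep intronic peaks and 0.5 against near intergenic peaks. With 3 replicates this exact test cannot go below p = 0.25, so no comparison can reach 0.05, and the 10 comparisons of this kind had Benjamini-Hochberg adjusted p-values from 0.313 to 0.75.

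**Figure D2:**
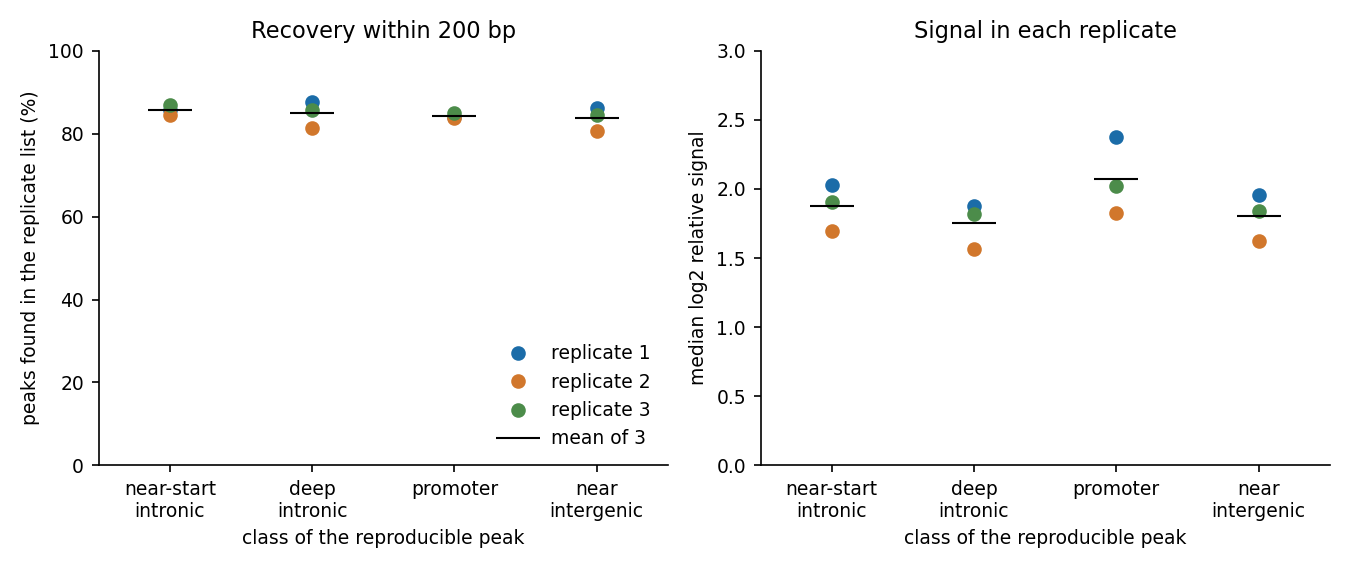
Left, percent of reproducible peaks of each class with a summit of the replicate's list within 200 bp. Right, median log2 relative signal of the same classes. Points are the 3 replicates and the bar is their mean, with near-start intronic peaks at 85.7% and 1.88, between promoter peaks (2.07) and deep intronic peaks (1.75) in signal.

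The share of near-start intronic peaks was higher among strong candidates than among weak ones. It was 26.1%, 26.5% and 25.6% of the 3 replicate lists and 20.7%, 21.96% and 21.9% of the lowest-signal candidates. The difference was 4.58 ± 0.883 percentage points, positive in 3 of 3 replicates, with the smallest p the exact sign-flip test allows (0.25). With an inner limit of 1000 bp it was 1.72 ± 0.633 points.

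Within the 5 kb limit the peaks were denser close to the start. Between 0.5 and 1 kb from the nearest protein-coding TSS there were 121, 123 and 120 peaks per Mb in the 3 replicate lists. The density was 94.8 ± 1.90 per Mb from 1 to 2 kb, 77.0 ± 0.74 from 2 to 3 kb, 66.3 ± 0.985 from 3 to 4 kb and 68.7 ± 3.76 from 4 to 5 kb. The fall from each of the 3 nearest bins to the next was larger than the replicate SDs, and the 2 farthest bins did not differ beyond theirs. The lists share most of their sites, so these SDs show how far the lists agree and not the counting error of a density. The lowest-signal candidates showed no such fall, with 71.0 ± 3.73 per Mb in the nearest bin and 71.3 ± 3.00 in the farthest. The median distance was 1812 bp for the near-start intronic peaks and 2294.5 bp for the 1550 lowest-signal pooled candidates that met the same rule.

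Most near-start intronic peaks were in the opening intron of a transcript: 1471 (76.7%) lay in intron 1 of a transcript of any gene holding them (1469 when 1 host was taken for each peak), 310 in intron 2, 66 in intron 3 and 72 in a later one. Per Mb of qualifying sequence the replicate lists held 112 ± 2.12 peaks in intron 1, 64.8 ± 0.926 in intron 2, 40.6 ± 1.23 in intron 3 and 29.6 ± 2.36 in later introns. The lowest-signal candidates also fell along this order, from 81.6 ± 2.50 to 37.1 ± 5.37 per Mb, but were less dense than the lists in intron 1 and denser in intron 3. The share in intron 1 was 76.5%, 76.4% and 76.1% in the lists and 67.9%, 66.8% and 67.9% in the lowest-signal candidates. The difference was 8.83 ± 0.736 percentage points, with 3 of 3 replicates positive (exact sign-flip p = 0.25).

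**Figure D3:**
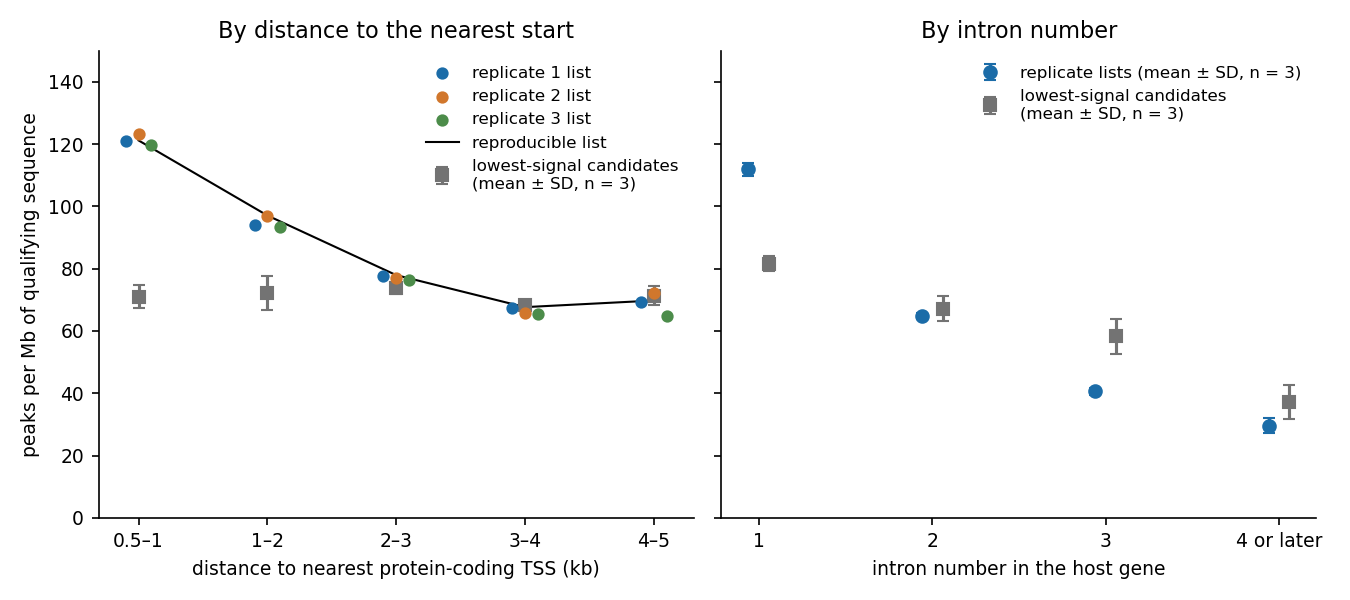
Near-start intronic peaks per Mb of sequence meeting the rule, left by distance from the nearest protein-coding TSS (kb) with a point for each replicate list and a line for the reproducible list, right by intron number with mean ± SD of the 3 replicate lists. Grey squares are the lowest-signal candidates (mean ± SD, n = 3). On the left, the mean of the lists falls from 121 per Mb nearest the start to under 70 beyond 3 kb, though replicate 2 is at 72.3 from 4 to 5 kb. The grey squares on the left stay between 68.3 and 73.8.

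For 1635 of the 1919 peaks (85.2%) the nearest protein-coding start belonged to the host gene, against 80.8% of the 1550 lowest-signal pooled candidates under the same rule. Downstream of that start lay 1267 (66.0%), against 66.6% of those candidates. A summit upstream of its nearest start can still be inside the gene because many hosts have several starts: 1057 peaks (55.1%) lay between alternative TSSs of the host, against 52.8% of the candidates. The intron around a peak had a median length of 7565 bp, against 9017 bp for the candidates. Of the peaks, 92 were inside more than 1 gene. The 5 peaks just inside the 500 bp limit, in aru, mip120, chas, yin and CG1146, were 501 to 504 bp from a start with pooled signals from 199 to 1300. The 5 intronic peaks just outside it, in Mtp, wnd, CG45544, CG8128 and Eip75B, were 498 to 500 bp away with pooled signals from 202 to 811. At the outer limit the 5 just inside (in l(3)L1231, Ac13E, CG46339, tna and cno) had signals of 189 to 853 and the 5 just outside (in sick, cv-c, Pdcd4, CG43658 and boi) of 156 to 1186. The ranges overlapped at both limits.

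GC content fell at the summits. In 200 bp windows it averaged 34.0%, 36.3% and 36.4% at the summits of near-start intronic peaks in the 3 replicate lists, against 42.5%, 42.3% and 42.1% in windows centred 500 bp to either side. The difference was -6.74 ± 1.60 percentage points (negative in 3 of 3 replicates, exact sign-flip p = 0.25), and -3.05 ± 1.12 in windows of 400 bp. Lowest-signal candidates under the same rule had a difference of -0.773 ± 2.05, a difference whose SD spans 0. Of the 1919 reproducible peaks, 1515 (78.9%) had less GC at the summit than in their flanks. This count was not made over the whole reproducible list. Over the same 5 groups by pooled signal, from the strongest to the weakest, the mean difference was -8.42, -8.01, -7.65, -5.97 and -5.68.

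The profile around the summit had a narrow trough and a shoulder on each side. In 50 bp windows GC content was 33.2% ± 1.62 at the summit, 44.7% ± 0.111 at 250 bp on either side and 41.0% ± 0.418 at 1000 bp. The shoulder thus stood 4.22, 3.44 and 3.38 points above the level at 1000 bp in replicates 1, 2 and 3 (3.68 ± 0.466). In the lowest-signal candidates the same difference was -0.348 ± 0.185. Deep intronic peaks of the reproducible list also had a shoulder, with 46.0% at 300 bp on either side and 40.6% at 1000 bp. The same values were 44.7% and 41.0% at near-start intronic peaks and 43.6% and 43.1% at promoter peaks. The trough was not particular to this class. Promoter peaks had 34.9% at the summit, against the 43.6% at 300 bp. In deep intronic peaks of the replicate lists, the difference of summit and flanks in 200 bp windows was -7.90 ± 1.07 points. The difference of near-start intronic peaks was smaller in size by 1.16 ± 0.602 points, or by 0.707 ± 0.14 among the strongest peaks of each list and 0.546 ± 0.337 in windows of 400 bp. Some flanking windows hold exons, which are GC-richer. Restricted to the 1339, 1329 and 1295 listed peaks whose 3 windows held no exon base, a restriction chosen after seeing the data, the drop was -7.92, -5.41 and -5.15 points. Those windows do not cover the shoulder at 250 bp, where exons were not checked.

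**Figure D4:**
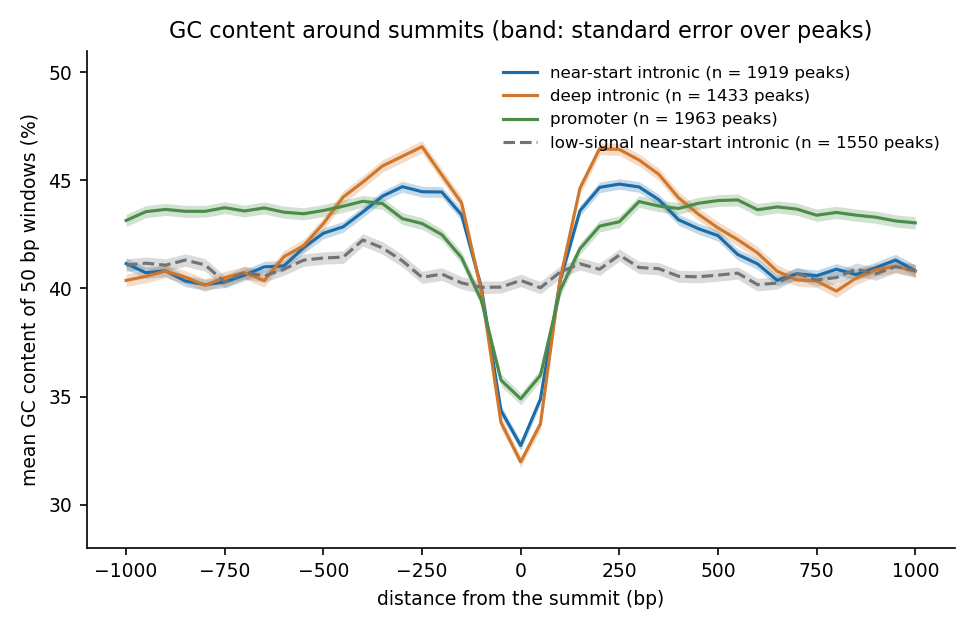
Mean GC content (%) of 50 bp windows by distance from the summit (bp) for the 1919 near-start intronic, 1433 deep intronic and 1963 promoter peaks of the reproducible list and for 1550 lowest-signal candidates meeting the near-start intronic rule. Bands are the standard error over peaks, which are not replicates. The near-start intronic line dips to 32.7% at the summit and rises to 44.8% at 250 bp, and the dashed low-signal line stays between 40.0% and 42.2%.

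Many consensus motifs differed in frequency between summits and flanks. Of the 32 motifs searched on both strands, 11 were more frequent and 12 less frequent at summits than in flanks in all 3 replicate lists. Even 3 independent lists would share a sign by chance with probability 0.25, and these lists share most of their sites. The count was not made over all reproducible peaks, so it describes the lists only. Of the 32, TATAAA, the core of the TATA box bound by TBP, had the largest difference. It was in 39.4%, 33.5% and 33.5% of 200 bp summit windows and in 20.3%, 19.6% and 20.3% of flanking windows. Over the reproducible list 703 near-start intronic windows (36.6%) held it, against 35.7% of all reproducible summit windows, so its share was near that of the whole list. The share was 35.1% at deep intronic and 34.7% at promoter summits, and 25.2% at lowest-signal candidates under the same rule. Along the profile in 50 bp steps, the share of windows with TATAAA was 13.2% ± 1.88 at the summit and 5.60% ± 0.432 at 500 bp to its right.

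Other A- and T-only words were also more frequent at summits. AATATT, a sequence of the kind AT-hook proteins bind, was in 27.4% of summit windows and 14.5% of flanks. Its share was 29.1% over all reproducible summit windows and 31.3% at deep intronic summits, so it was not more frequent here than elsewhere. The run AAAAAAA was in 29.5% and 21.4%, and in 28.5% of all reproducible summit windows. Over all 36 words of 6 letters made of A and T only, counted with their reverse complement, the ratio of summit to flank share ranged from 1.32 to 2.13, and each was above 1. It was highest for ATATTA (2.13 ± 0.236, n = 3) and TTATAA (2.12 ± 0.307). By the number of TA steps in the word, the median ratio was 1.38 for 4 words with none, 1.48 for 19 words with 1 and 1.71 for 12 words with 2, while the single word with 3 (TATATA) had 1.496.

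Some motifs with C or G were also more frequent at summits, though by less than TATAAA. The forkhead core TGTTTA was in 24.5% of summit windows and 19.4% of flanks, and the AP-1 site TGANTCA in 6.04% and 4.92%. Of all reproducible summit windows, 24.2% held TGTTTA and 5.09% held TGANTCA. Most others with C or G that differed were scarcer. CACACACA, a CA repeat, was in 3.60% of summit windows and 8.21% of flanks. GGGCGG, a GC box, was in 3.86% and 7.63%, and the Ets core CCGGAA in 2.71% and 5.03%. GAGAG, the GAGA factor site, was in 23.03% and 28.1%. Over all reproducible summit windows the shares were 3.68% for CACACACA, 3.46% for GGGCGG, 3.41% for CCGGAA and 23.5% for GAGAG. The promoter motifs TATCGATA (DRE) and GGTCACAC (the M1BP core) were in 0.208% and 0.469% of near-start intronic summits, against 2.80% and 2.14% of promoter summits. They were also scarce at deep intronic summits (0.349% and 0.768%) and in the flanks of near-start intronic peaks (0.313% and 0.547%). In the exact sign-flip test no motif can go below p = 0.25, and the smallest Benjamini-Hochberg adjusted p over the 32 motifs was 0.348. A match describes letters in the window and is not evidence of a bound factor.

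The peaks were spread over 1075 host genes, 11.8% of the 9101 protein-coding genes that have sequence meeting the rule. Of these hosts, 636 had 1 peak, 225 had 2 and 214 had 3 or more. Hosts had more qualifying sequence than other genes, with a median of 6.10 kb against 0.352 kb. A summit with another summit of the same list within 2 kb was common: 57.0%, 54.2% and 54.4% of near-start intronic peaks in the 3 lists, against 29.0%, 29.6% and 35.2% of the lowest-signal ones. The share was not counted over all listed peaks or other classes, so it is not shown to be particular to near-start intronic peaks.

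The hosts with most peaks were CG1677 and Svil, with 15 each. In Svil, which encodes an actin-binding protein of the supervillin family, they spanned 103 kb with a median gap of 4.25 kb, and 12 of them were in all 3 replicate lists. In CG1677 they spanned 87.7 kb, and 14 were in all 3 lists. Some of these also lie in other genes: the strongest is inside Dok too, and another is inside Atg5. Tlk, the tousled-like kinase, had 14 peaks, the strongest with relative signals of 20.0, 20.1 and 25.9.

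Then came shn, a zinc-finger cofactor of the Dpp pathway, and CG43658 with 11 each, and ush, tou, a bromodomain chromatin protein, and CG32719 with 10 each. Among these 11 hosts, peaks were packed most tightly in ckn and vri, which had 9 each within 11.2 and 13.02 kb, or 841 and 623 per Mb of their qualifying sequence. The strongest in vri, a bZIP repressor of the circadian clock, had relative signals of 29.5, 19.0 and 18.2, with replicate 1 above the others. In kirre, an adhesion protein of fusing myoblasts, 9 peaks spread over 310 kb, 89.5 per Mb of qualifying sequence and so close to the 88.0 of all such sequence.

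Hosts of a near-start intronic peak often had a promoter peak too. In the 3 replicate lists 43.0%, 43.4% and 45.4% of hosts had a peak within 500 bp of a start, against 15.5%, 18.8% and 17.3% of the other genes with qualifying sequence. The difference was 26.7 ± 1.88 percentage points. Within bands of qualifying length it was 17.8 ± 5.97 points among genes with 1 to 2 kb of qualifying sequence, 17.5 ± 0.975 with 2 to 5 kb, 24.2 ± 2.61 with 5 to 10 kb and 27.8 ± 3.64 with 10 to 200 kb, each positive in 3 of 3 replicates (exact sign-flip p = 0.25 for each). These band comparisons and the neighbour count were added after other values had been seen.

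Host genes were then read against 26 lists of pathway and tissue genes, each by the share of its genes with qualifying sequence that held a near-start intronic peak (11.8% over all genes) and by peaks per Mb of that sequence (88.0 over all). Of the 26 lists, 20 exceeded all genes in share and 17 in density. The lists were chosen with earlier results of these data known, so these 2 counts describe the choice and give no result about hosts in general. No test was made for a list, and a few genes, such as Egfr, Trl, sgg and dco, stand in more than 1. The 2 measures can part, since a gene with more qualifying sequence has more room for a peak. In the replicate lists 13.1% ± 1.57 of genes with 1 to 2 kb of such sequence held a peak. With 2 to 5 kb it was 23.1% ± 1.56, with 5 to 10 kb 37.4% ± 0.715 and with 10 to 200 kb 57.9% ± 1.63. Whether a list exceeds genes of like length was not tested.

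Genes of growth factor signalling were high on both measures. In the EGF receptor and Ras-MAPK list, 12 of 18 genes held a peak (63.0% ± 3.21 in the replicate lists), at 258 peaks per Mb. They were Dsor1, Egfr, Pvr, Raf, aop, aos, drk, pnt, rho, spi, sty and vn, which span ligand, receptor, kinases, nuclear effectors and feedback inhibitors. The strongest was in aop, the Ets-domain repressor Yan, with relative signals of 18.8, 15.2 and 20.6. In Raf, a kinase acting below Ras, the strongest peak had 16.9, 13.6 and 16.2.

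In the Dpp, BMP and activin list, 12 of 18 genes held a peak, at 245 per Mb, again from ligands (dpp, daw) through receptors (tkv, put, wit) to Mad, the Smad that carries the signal, and Dad, its inhibitor. The strongest was in wit, a type II receptor, with relative signals of 18.6, 18.7 and 21.1. In shn they were 21.3, 15.5 and 17.2. The other signalling lists were also above all genes in share: Wingless with 10 of 22 (203 per Mb), Notch with 7 of 16 (193 per Mb, or 6 of 15 and 158 per Mb without Egfr, a receptor of another pathway), Hippo with 8 of 17 (184 per Mb), JNK with 6 of 12 (175 per Mb), Hedgehog with 4 of 12 (149 per Mb) and JAK-STAT with 3 of 12 (141 per Mb). These shares were not matched for qualifying length.

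Named peaks in these lists included dlp, a glypican co-receptor (14.6 ± 3.07), nkd, a feedback inhibitor (14.3 ± 5.26), and fz2, a Wingless receptor (13.02 ± 2.36). In the Notch list, neur was strongest and mam, a coactivator, followed with 18.6, 12.4 and 12.3. In the Hippo list crb, an apical polarity protein, had 16.7 ± 2.86 and the kinase gene wts 7.26 ± 2.00. In the Hedgehog list shf, a secreted factor, had 14.4 ± 0.52 and ptc, the receptor, 8.09 ± 1.12. The neighbours dlp and nkd did not differ beyond their SDs. At wit and mam, as at EcR, Eip75B and so below, the nearest start was that of another gene.

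The insulin and TOR list had 6 of 24 genes and 178 peaks per Mb, led by Lk6 and ImpL2, with foxo, the transcription factor of the pathway, at 9.75 ± 3.86. The fat body and lipid list had 8 of 20 and 151 per Mb, with bmm, a triglyceride lipase, at 7.47 ± 2.22. In SREBP, a regulator of lipid synthesis, replicate 1 had no candidate within 200 bp, while replicates 2 and 3 had relative signals of 10.9 and 11.3. The circadian list had 5 of 13 and 168 per Mb, and the autophagy list 4 of 15 and 158 per Mb, with a peak at 13.7, 6.23 and 6.61 inside both Atg1, the kinase that starts autophagy, and CG42709, whose start is nearest.

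In the ecdysone response list share and density parted. Peaks were found in 11 of 24 genes (48.6% ± 8.67 in the replicate lists), namely Blimp-1, E23, EcR, Eip74EF, Eip75B, Eip78C, Hr3, Hr4, crol, svp and tai, but at 74.8 per Mb, below all qualifying sequence. After Eip78C the strongest was in Eip74EF, an Ets factor induced early by ecdysone, with 30.4, 14.1 and 12.5, a value in replicate 1 above those of the others. In EcR, the ecdysone receptor, relative signals were 9.28, 9.53 and 11.7, and in Eip75B, a nuclear receptor, 13.3, 8.64 and 8.68. Axon guidance genes likewise had 16 of 37 at 82.2 per Mb.

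Lists of developmental transcription factors and of neuronal and muscle genes had low densities. The homeobox and patterning list had 5 of 39 genes (12.8%), near the share of all genes, and 24.4 peaks per Mb, with hth at 6.10 ± 2.65 and so at 6.98 ± 1.28. Hox genes had 3 of 8 (Abd-B, Antp and lab) at 53.3 per Mb, and the peak of Antp, a segment identity gene, which also lies in CG46458, had relative signals of 5.83, 3.13 and 2.88. Neuronal and synaptic genes had 6 of 29 at 34.4 per Mb, and the peak inside both elav, which encodes a pan-neuronal RNA-binding protein, and arg had 4.63 ± 1.08. Muscle genes had 2 of 24 (Mef2 and Msp300) at 29.5 per Mb.

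Polycomb and Trithorax genes had 4 of 26 (15.4%) with peaks in Trl, trx, kis and ph-p, at 167 per Mb over 0.0538 Mb. Cuticle protein genes had 1 of 14 at 34.5 per Mb and immune signalling 2 of 15 at 113 per Mb. Apoptosis genes had 1 of 10 (Diap1, an inhibitor of caspases, 11.3 ± 1.84) and insulator proteins 1 of 11 (Trl). In these last 2 lists that 1 gene held every peak, 5 and 3, so the density was high, at 233 and 255 per Mb, while the share was below that of all genes. Actin cytoskeleton genes had 12 of 31 at 106 per Mb. Mitochondrial and cytoplasmic ribosomal protein genes had 0 of 7 and 0 of 20, over 0.00472 and 0.0039 Mb of qualifying sequence. A count of 0 of 7 and of 20 allows shares of up to 42.9% and 15.0% (3 counts, counting error only), so these lists give no result.

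**Figure D5:**
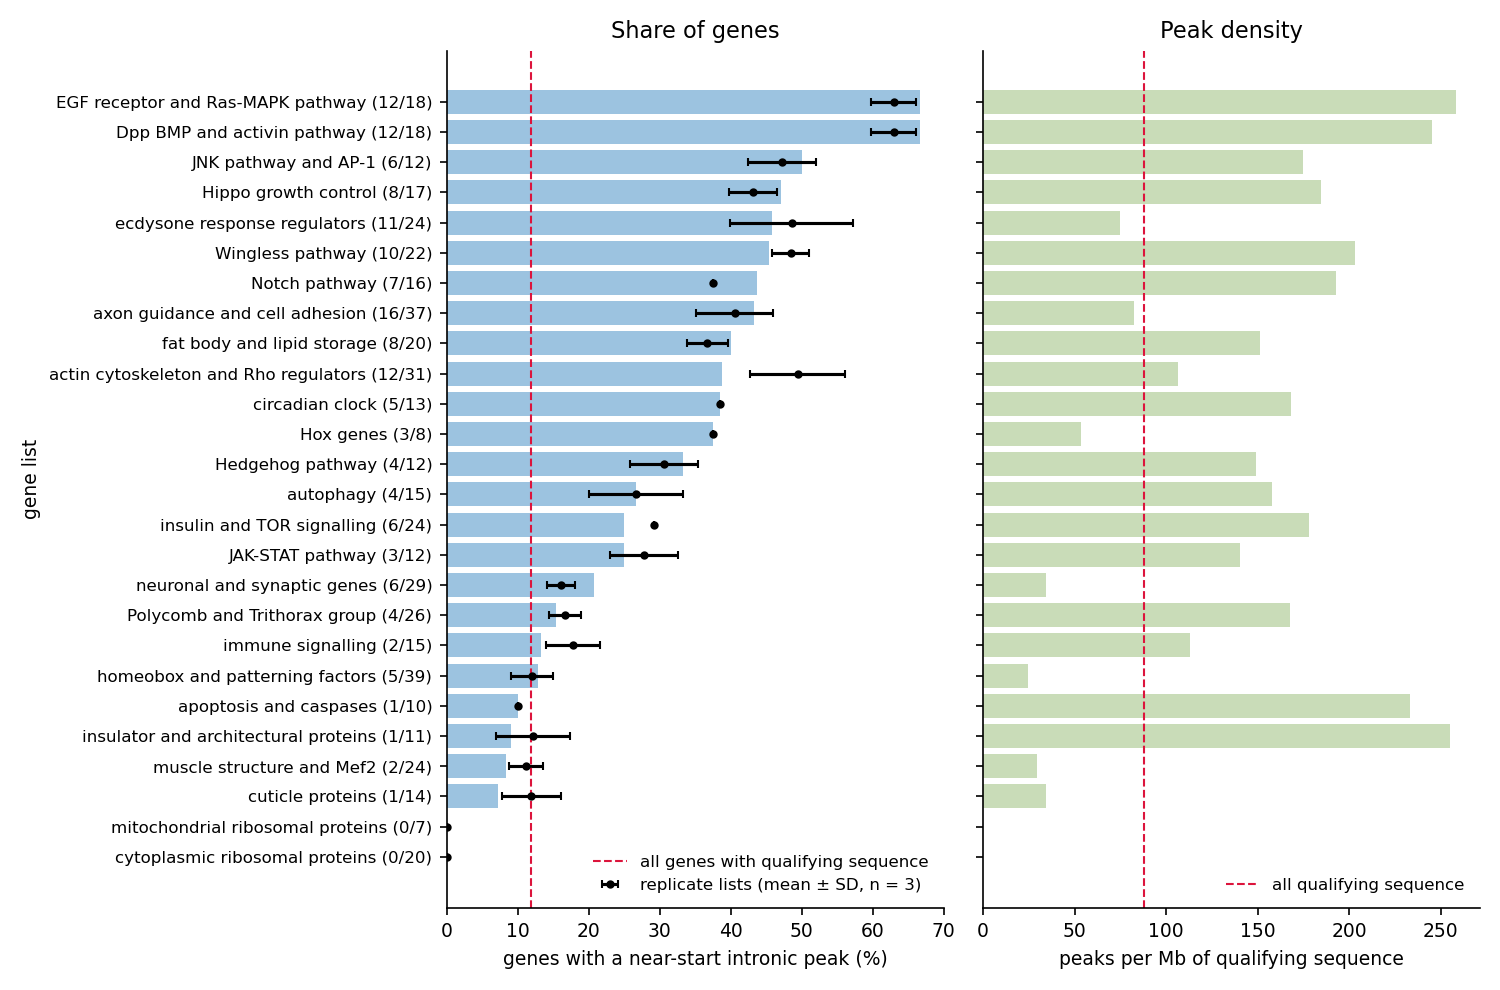
Left, percent of the genes of each list with qualifying sequence that held a near-start intronic peak (bars, reproducible list, with counts in the labels) and the mean ± SD of the 3 replicate lists (points). Right, peaks per Mb of the list's qualifying sequence. Dashed lines are the values over all genes and all qualifying sequence, 11.8% and 88.0 per Mb, and the ecdysone, axon guidance, Hox, neuronal and homeobox lists exceed the first line while falling short of the second.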

How the data were processed

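Files were 5 peak lists in dm6 coordinates: 30000 candidate peaks for each of the 3 replicates, 30000 from pooled reads and a reproducible list of 7248. Per the file headers, the authors called candidates from each replicate's alignments against a shared control and passed them to the irreproducible discovery rate (IDR) procedure. Each deposited peak has a signal value, the caller's own, and a −log10 q-value, tied at 4.24 throughout the reproducible list and not used. The aligner, caller, IDR threshold and read depth were not given in the sources used here. Reproducible peaks equalled the 7248 pooled candidates of highest signal.

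Summits were classed with Ensembl 115 genes, transposons left out, and sequence came from the RefSeq Release 6 genome (Python 3.11.15, numpy 2.4.6, pandas 2.3.3). Signals were divided by the median candidate signal of the replicate. Peaks are not replicates, so values were computed in each replicate, given as mean ± SD (n = 3) and compared by an exact two-sided sign-flip permutation test, whose smallest p is 0.25. Replicate lists share most of their sites, so the SD of a density or share shows agreement between lists and leaves out counting error. Code was tested on simulated data. The labels number the samples as biological replicates without saying how animals were pooled, and all share a control.

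Named are hosts of the 25 strongest peaks found in all 3 lists, up to 4 per gene list, the 10 hosts with most peaks (11 with a tie, CG1677 to ckn) and the 5 peaks nearest each distance limit. The members and lists were chosen with earlier results of these data known. Comparisons of neighbouring summits, chromosomes, promoter peaks of hosts, signal groups, GC shoulders and A- and T-only words, and the Notch list without Egfr, were added after values were seen, as were mentions of peaks lacking in replicate 1.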

Additional observations from a re-analysis of the deposited data

How the results depend on the processing

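Distance limits (inner 1000 bp, outer 2 or 10 kb), exons of protein-coding genes only, the 3624 strongest peaks, matching within 100 or 500 bp, windows of 100 or 400 bp, exon-free windows, a Notch list without Egfr and leaving out each replicate gave 136 alternative values of 15 results. Of these, 130 kept their direction and, for counts, stayed within 1.5 times. Exceptions follow, and the cause was not tested beyond fewer sites entering. Recovery relative to deep intronic peaks reversed to -0.304 points with an outer limit of 2 kb and to -0.42 without replicate 2, the lowest of a leave-one-out range up to 2.10. The number of peaks was 1065 at 2 kb and 942 among the 3624 strongest, and those in all 3 lists were 709 and 701. Among the rest, the GC drop ranged from -8.61 points (100 bp windows) to -3.05 (400 bp windows), the TATAAA difference from 11.6 to 17.0, the excess over low-signal share from 1.72 (inner limit 1000 bp) to 5.02, the excess in intron 1 from 6.31 to 10.8, and log2 signal relative to promoter peaks from -0.24 to -0.12. No p could pass 0.05 under any setting. Leaving out a replicate or changing the matching distance gives no value for the number of peaks. Every comparison was already a difference within replicates, and with 1 group no further pairing of samples applies. Depth is unknown, candidates end at a fixed number per replicate, and a site missing from a list is not shown to be unbound.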

Other observations

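Near-start intronic peaks were unevenly spread over the chromosomes. The X chromosome held 488 of the 1919 (25.4%), at 110, 102 and 105 peaks per Mb of qualifying sequence in the 3 replicate lists. Arm 2R had 89.02 ± 1.35 per Mb, 3L 86.4 ± 2.45, 3R 81.3 ± 3.68 and 2L 75.8 ± 3.29. The density on X was 1.29 ± 0.0775 times that of the other chromosomes together, against 1.13 ± 0.176 times among the lowest-signal candidates. The ratio of the lists minus the low-signal ratio was 0.268, 0.225 and -0.0139 in replicates 1, 2 and 3 (exact sign-flip permutation p = 0.5), so the excess over weak candidates did not hold in every replicate. Males and females were pooled, and the copy number of X was not considered. Chromosome 4 held 1 reproducible near-start intronic peak in 0.276 Mb, and its replicate lists held 10.9, 0 and 3.62 per Mb.

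Of the 100 strongest peaks of the whole reproducible list, 22 were near-start intronic, and 183 of its strongest 724 (25.3%) were, against 26.5% of the whole list. Median pooled signal by chromosome ranged from 285 on X, the densest, to 323 on 2R among the 5 large chromosomes. At 28 of the peaks another reproducible summit shared the same deposited interval.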
